A study of Mus musculus with 4 samples.

Results

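Collagen chain genes were analysed in cultured mouse myotubes that had been treated with EDA-A2, a ligand of the ectodysplasin A2 receptor of the TNF family. All protein-coding genes whose symbol has the form of a numbered collagen chain (Col, a type number, the letter a and a chain number) were taken, without regard to their level, which gave 44 of the 53647 genes in the tables. Both groups were wild-type primary myotubes grown from myoblasts of the limb muscles of pups 2 to 3 days old, and both were harvested 72 h after the start of differentiation. The EDA-A2 group was given recombinant EDA-A2 at 250 ng/ml over the last 24 h, and the labels do not say what the control group received in its place. There were 2 libraries per group. The labels do not say whether these came from separate cultures, so p-values measure only the spread between these libraries, which may be technical.

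Collagens are secreted or membrane-bound proteins of 3 chains wound around each other over stretches of a repeated triplet, Gly-X-Y, in which glycine opens each triplet. Fibrillar chains (types I, II, III, V, XI, XXIV and XXVII) build the fibrils of the interstitial matrix, whereas type IV chains form the sheet-like network of the basement membrane that wraps each muscle fibre. Type VI collagen forms beaded filaments beside basement membranes, FACIT collagens attach to fibril surfaces, and multiplexins sit at the outer face of basement membranes.

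Classes were assigned by collagen type. Stretches of coding sequence are shown as examples of the repeat in fibrillar and basement membrane chains, which are compared by their runs. Runs of at least 5 triplets were located in the coding sequence of each chain (GRCm39 assembly, GENCODE canonical transcript). In the 11 fibrillar chains the longest run held 216 to 344 triplets, with a median of 338, and each chain had 2 to 3 runs. In the 6 type IV chains the longest run held 39 to 66 triplets, and each chain had 22 to 27 runs, since short breaks interrupt the repeat. For Col1a1 (codons 168 to 197) and Col3a1 (codons 164 to 193) the first 30 codons of the longest run are shown. For Col4a1 (codons 209 to 238) and Col4a2 (codons 220 to 249) those around the first short break are shown, with 2 codons between runs. Since the stretches were picked inside a run or around a break, they are examples and not a comparison. Capitals mark the glycine codon that opens each triplet.
Col1a1: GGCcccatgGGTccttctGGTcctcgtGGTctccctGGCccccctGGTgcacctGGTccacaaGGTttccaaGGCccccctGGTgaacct
Col3a1: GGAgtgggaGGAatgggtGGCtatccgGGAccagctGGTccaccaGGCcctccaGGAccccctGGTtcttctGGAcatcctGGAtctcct
Col4a1: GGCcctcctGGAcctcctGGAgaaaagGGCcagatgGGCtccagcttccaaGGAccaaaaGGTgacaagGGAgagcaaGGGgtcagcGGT
Col4a2: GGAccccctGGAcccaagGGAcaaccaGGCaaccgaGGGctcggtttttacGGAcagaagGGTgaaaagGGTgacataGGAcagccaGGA

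The libraries held 29444155 to 29746863 counts on genes, and TMM factors lay between 0.972 and 1.026. A count of 0 allows up to 3 counts, or 0.101 to 0.102 CPM (counts scaled to library size), a limit that covers counting error only. Of 15173 genes with enough counts to be tested, 371 were higher and 323 lower with EDA-A2 at an adjusted p under 0.05. When control replicate 1 or control replicate 2 was left out, 7 and 9 genes were called in all, and 351 and 416 when EDA-A2 replicate 1 or EDA-A2 replicate 2 was. The median log2 fold change over all of these genes was -0.00. All 8 myotube markers looked for had more than 3 counts in every library.

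A wide gap separated abundant from low chains. Levels are given here as fragments per kilobase of exon after scaling for depth (FPKM), to allow for unequal gene length. The length used is that of all annotated exons together. It was 10.998 kb for Col6a2 and 5.847 kb for Col6a1, which have 1034 and 1025 codons. Ranks between single chains therefore depend on the lengths used. The 15 most abundant chains had means over the 4 libraries of 11.5 FPKM or more, whereas the highest of the other 29 reached 0.731 FPKM. The 15 chains made up 99.1 to 99.3% of all collagen counts. Type III (Col3a1, 139.7 FPKM), XVIII (Col18a1, 87.4 FPKM) and V (Col5a1, 80.6 FPKM) led, and were followed by type VI (Col6a1, 69.0 FPKM) and type IV (Col4a1, 66.2 FPKM). Fibrillar and type IV chains thus stood side by side among the abundant members.

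**Figure D1:**
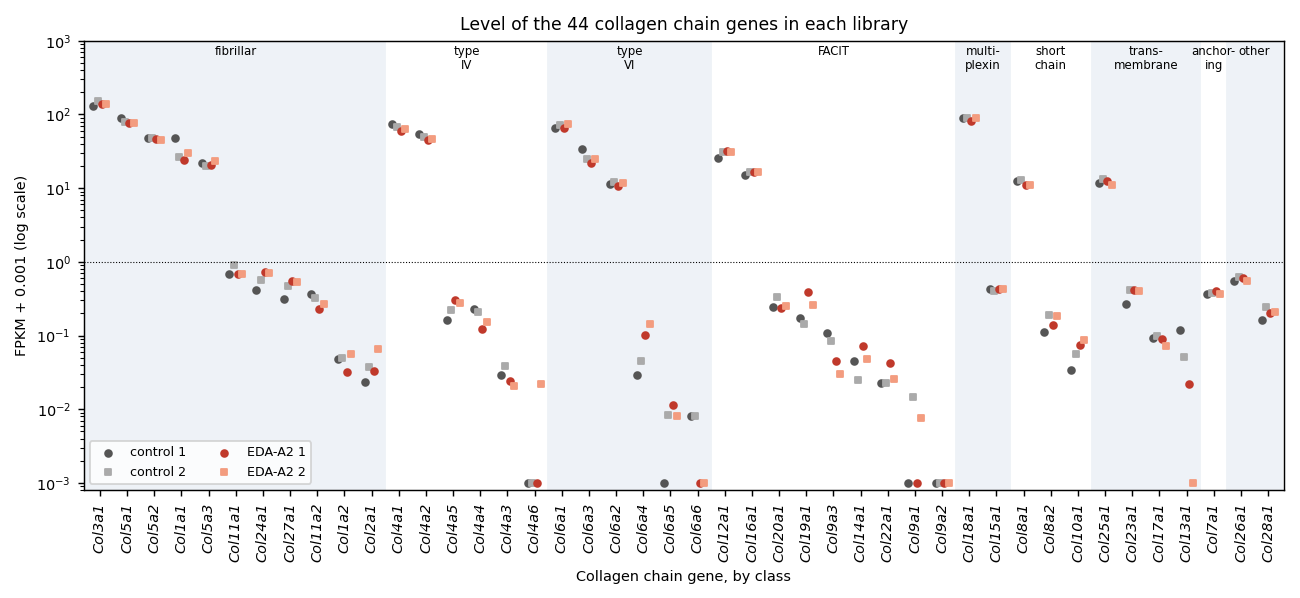
Level of each of the 44 collagen chain genes in FPKM plus 0.001 on a log axis, by class, with 1 point per library (grey, control; red, EDA-A2) and a dotted line at 1 FPKM. The 15 abundant chains sit at or above 11.5 FPKM on average and the other 29 at or below 0.731, and within most chains the 4 points lie close together.

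The comparison of EDA-A2 with control asked whether the ligand shifted collagen expression. Col19a1 and Col6a4, both of low level, rose, and no chain was called lower. In all, 33 of the 44 chains had enough counts to be tested, and 2 of these 33 (6.06%) passed an adjusted p of 0.05 (edgeR quasi-likelihood test, Benjamini-Hochberg), against 4.57% of all genes tested. By direction, 2 were higher and 0 lower, where 2.45% and 2.13% of all genes tested were. Col6a4 passed the filter on low counts only through its EDA-A2 libraries, and Col9a3, which was not called, only through its controls. The call of Col6a4 and the split by direction therefore depend in part on this filter. The DESeq2 Wald test called 1 chain, and 565 of the 13702 genes to which it gave an adjusted p. In edgeR 12 of the 33 had an unadjusted p under 0.05, where the share over all genes tested was 15.6%. The median log2 fold change of the 33 chains was -0.05, with 14 values above 0 and 19 below (50.5% of all genes tested were below 0). Both EDA-A2 libraries lay below both control libraries in 11 chains and above them in 6, against 22.2% and 22.8% of all genes tested, so the groups did not overlap in 17 of 33 (51.5%), whereas this held for 45% of all genes tested. A p that misses the threshold does not show that a chain was at the same level in both groups.

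**Figure D2:**
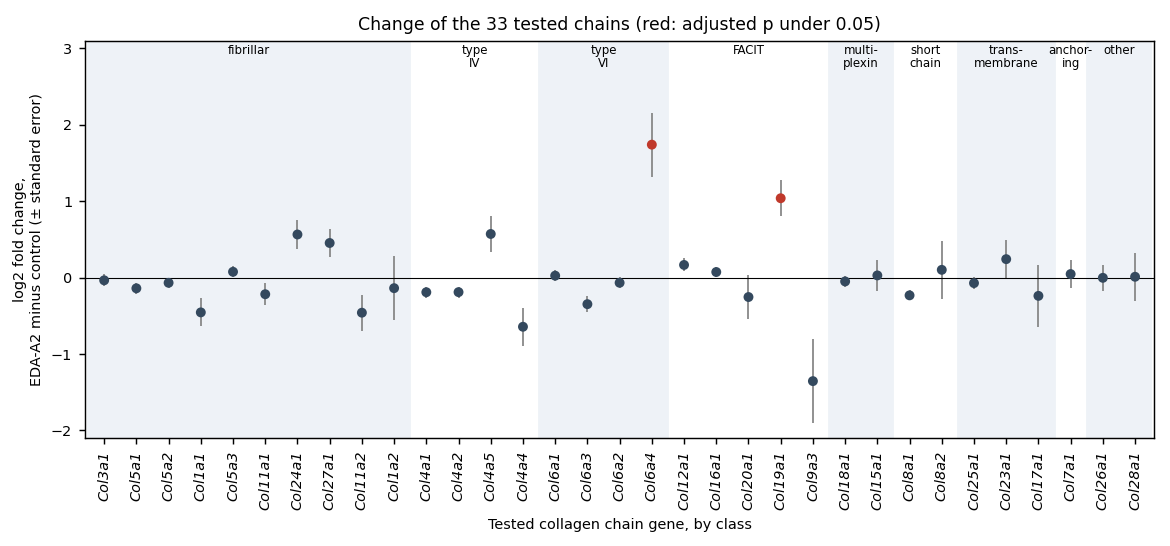
log2 fold change (EDA-A2 minus control) of the 33 tested chains by class, with bars of 1 standard error and an adjusted p under 0.05 in red. Only Col6a4 (1.74) and Col19a1 (1.04) are red, and Col9a3 has the lowest value (-1.35) with a wide bar.

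Col19a1 encodes the chain of type XIX collagen, a FACIT member of basement membrane zones that is made in developing muscle (GRCm39 chr1:24296772-24627011, minus strand). Its normalised counts were 64.9 and 54.5 in control and 148.0 and 97.3 in EDA-A2. Both EDA-A2 libraries were above both controls, and they differed from each other more than the controls did. The log2 fold change was 1.04 ± 0.24 (SE, n = 2 libraries per group), a fold of 2.05 (edgeR quasi-likelihood test, Benjamini-Hochberg adjusted p = 0.02). It no longer passed when EDA-A2 replicate 1 (0.70, adjusted p = 0.42 in edgeR), control replicate 1 (1.17, adjusted p = 0.297) or control replicate 2 (0.91, adjusted p = 0.321) was left out.

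Col6a4 encodes a chain of type VI collagen that can stand in for the chain of Col6a3 (GRCm39 chr9:105866653-105973990, minus strand). It had 7 and 11 raw counts in control and 26 and 37 in EDA-A2, or 7.21 and 11.1 against 25.5 and 36.4 normalised counts. The groups did not overlap, but each value rested on few counts. The filter needed about 10 counts in 2 libraries. The controls alone did not meet it, so the chain was tested only through its EDA-A2 libraries. Its rise is therefore not independent of how it entered the test. The log2 fold change was 1.74 ± 0.42 (SE, n = 2 per group), a fold of 3.34 (edgeR quasi-likelihood test, Benjamini-Hochberg adjusted p = 0.0274). It no longer passed when control replicate 1 (1.47, adjusted p = 0.284 in edgeR), control replicate 2 (2.08, adjusted p = 0.19) or EDA-A2 replicate 2 (1.46, adjusted p = 0.207) was left out. Without a filter on low counts neither chain passed, with adjusted p-values of 0.243 for Col19a1 and 0.192 for Col6a4 in edgeR. Even after treatment both stayed below 1 FPKM in every library.

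Since EDA-A2 acts on a receptor known to signal to NF-kB, the promoters of both chains were searched for the NF-kB consensus (GGG, then A or G, any 2 bases, 2 of C or T, then CC) on both strands of the 300 bases from 250 before to 50 after the GENCODE start. It occurred in 8.97% of 21770 protein-coding promoters and in 5 of the 44 collagen promoters, namely those of Col6a2, Col6a4, Col9a2, Col26a1 and Col27a1. The Col19a1 window held none. In Col6a4 the match began at base 34 after the start, outside the 250 bases before it. When only these 250 bases were searched, 3 of the 44 collagen promoters and 7.62% of all promoters held the consensus, and Col6a4 was no longer among them. The match is shown in capitals within 30 bases read along the gene (GRCm39 chr9:105973941-105973970, minus strand). Of the other motifs searched in the 300 bases on both strands, GGGCGG occurred in 23 of the 44 collagen promoters (42.5% of all promoters), CCAAT in 17 (39.9%) and TATAAA in 8 (13.2%). A match in letters is a description and not a bound site.
Col6a4: ttcctgtgtgctaGGGGATTCCCaggctca

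Among the fibrillar chains no gene was called in either direction by edgeR (4.57% of all genes tested were) or by the DESeq2 Wald test (565 of 13702 genes were). With shares this small, 0 of 10 says little about the class. Of the 10 fibrillar chains tested, 3 had an unadjusted p under 0.05 (15.6% of all genes tested did). Their median log2 fold change was -0.10, with 3 values above 0 and 7 below, and a range of -0.46 to 0.56. Col3a1, the chain of type III collagen in reticular fibrils, had normalised counts of 39997 and 46066 in control and 42197 and 41786 in EDA-A2. Both EDA-A2 values fell between the controls. Its log2 fold change was -0.04 ± 0.08 (SE, n = 2 per group) (edgeR quasi-likelihood test, Benjamini-Hochberg adjusted p = 0.896).

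Type V collagen starts fibril assembly, and its chains stayed within a narrow range. Col5a1 had 22986 and 20689 normalised counts in control and 19870 and 19764 in EDA-A2, with a log2 fold change of -0.14 ± 0.07 (SE, n = 2 per group). Col5a2 had a log2 fold change of -0.07 and Col5a3 of 0.08. The groups did not overlap for Col5a1 and Col5a2, whereas they overlapped for Col5a3.

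Col1a1, the main chain of type I collagen, stood out for a difference between the controls. It had 9277 and 5088 normalised counts in control and 4675 and 5802 in EDA-A2. Control replicate 1 was high and the other 3 libraries were close, with control replicate 2 lying between the EDA-A2 values. Its log2 fold change of -0.46 ± 0.18 (SE, n = 2 per group) did not pass (edgeR quasi-likelihood test, Benjamini-Hochberg adjusted p = 0.221). Leaving out control replicate 1 gave 0.04, whereas leaving out control replicate 2 gave -0.83 and leaving out EDA-A2 replicate 2 gave -0.62.

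Col1a2, the partner chain of type I collagen, was almost absent from the tables, with 17 and 18 raw counts in control and 12 and 21 in EDA-A2. Per length, Col1a1 exceeded Col1a2 by a ratio of 540 to 1020 in FPKM over the 4 libraries. This ratio depends on the exon union lengths used here, 6.57 kb for Col1a1 and 12.65 kb for Col1a2. The coding sequences are of similar length (1453 and 1372 codons), so the scaling makes the FPKM ratio larger than that of raw counts. Col1a1 had 9004 and 5046 raw counts in control and 4769 and 5904 in EDA-A2. In the usual type I molecule the Col1a1 chain occurs with that of Col1a2, so these levels are given as measured. Whether the annotation or the counting of the deposited tables lowered the counts of Col1a2 was not tested, and its ratio and fold change are uncertain to that extent. The remaining fibrillar chains were low. Col24a1 and Col27a1, fibrillar chains best known from developing bone and cartilage, had log2 fold changes of 0.56 and 0.45 with adjusted p-values of 0.112 and 0.206 in edgeR. In both chains the EDA-A2 libraries were above the controls, with 92.7 and 126 against 163 and 161 normalised counts for Col24a1. Without control replicate 1 the values were 0.36 for Col24a1 and 0.20 for Col27a1, and without control replicate 2 that of Col27a1 was 0.75. Type XI chains, which set fibril width in cartilage, had log2 fold changes of -0.22 (Col11a1) and -0.46 (Col11a2), and Col1a2 had -0.14. Col2a1 was not tested, with 6 to 18 counts.

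The type IV chains were likewise not called in either direction by edgeR (4.57% of all genes tested were) or DESeq2 (565 of 13702 genes were). With so few chains this says little about the class. All 4 type IV chains tested had an unadjusted p under 0.05 (15.6% of all genes tested did). Their median log2 fold change was -0.19, with 3 values below 0 and 1 above, and the groups did not overlap in any of the 4 (45% of all genes tested). That median was -0.12 without control replicate 1 and -0.26 without control replicate 2. Col4a1 had 16297 and 14907 normalised counts in control and 13289 and 14039 in EDA-A2. Its log2 fold change was -0.19 ± 0.07 (SE, n = 2 per group) (edgeR quasi-likelihood test, Benjamini-Hochberg adjusted p = 0.174). Col4a2 had 11677 and 10578 normalised counts in control and 9675 and 9832 in EDA-A2. Its log2 fold change was -0.19 ± 0.07 (adjusted p = 0.172 in edgeR). Col4a1 and Col4a2 encode the chains of the common basement membrane molecule, and their ratio in FPKM was 1.34 and 1.36 in control and 1.32 and 1.37 in EDA-A2. The pair therefore kept nearly the same proportion in all 4 libraries.

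Col4a1 (chr8:11248423-11362826, minus strand) and Col4a2 (chr8:11362471-11499287, plus strand) lie head to head in GRCm39 and overlap over 356 bases. The strand option of the counting was not given in the sources used here, so reads from the overlap may be uncertain between them. The 250 bases before the start of Col4a1 held 31 CG dinucleotides and those before Col4a2 held 18. Since the genes overlap, the Col4a1 window lay inside Col4a2 and the Col4a2 window inside Col4a1, and not between the starts. Over 21770 protein-coding promoters the median was 8 and the quartiles were 3 and 16. The counts ran from 0 to 27 in the fibrillar chains and from 3 to 31 in the type IV chains, so both classes overlapped.

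The minor type IV chains build the specialised networks of kidney, lung and other membranes. Col4a5 had 45.3 and 61.5 normalised counts in control and 82.3 and 76.7 in EDA-A2, with a log2 fold change of 0.57 ± 0.24 (SE, n = 2 per group). Col4a4 had 76.2 and 69.6 in control and 41.2 and 52.1 in EDA-A2, with a log2 fold change of -0.64 ± 0.25. Adjusted p-values in edgeR were 0.253 and 0.191. The groups did not overlap in either chain, with Col4a5 higher and Col4a4 lower, and neither passed. Col4a3 and Col4a6 were not tested, with 6 to 11 counts for Col4a3 and 5 counts in a single library for Col4a6. Col4a4 and Col4a3 overlap head to head over 159 bases, so their counts share the uncertainty given for Col4a1 and Col4a2.

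The sums of both main classes were compared by library, without a test between them. The summed level of fibrillar chains was 3137 and 3129 CPM in control and 2932 and 2966 CPM in EDA-A2, a log2 ratio of -0.09. That of type IV chains was 949 and 866 CPM in control and 780.1 and 811 CPM in EDA-A2, a log2 ratio of -0.19. In both sums the EDA-A2 libraries were below the controls. The ratio of fibrillar to type IV CPM was 3.30 and 3.62 in control and 3.76 and 3.66 in EDA-A2, so it was higher with EDA-A2 by 0.10 on the log2 scale, and the gap between the controls was wider than that between the groups' nearest values. All chains together summed to 6396 and 6372 CPM in control and 5949 and 6110 CPM in EDA-A2. Since they were chosen with earlier results known, no p was computed for these sums. In bulk RNA, fewer cells of a type and less RNA per cell cannot be told apart.

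Type VI chains were abundant for Col6a1, Col6a2 and Col6a3, the 3 chains of the common molecule around muscle fibres. Col6a1 had 11226 and 12449 normalised counts in control and 11439 and 12655 in EDA-A2, with a log2 fold change of 0.03 ± 0.08 (SE, n = 2 per group, adjusted p = 0.928 in edgeR). The groups overlapped. Col6a3 had 12162 and 8980 in control and 7848 and 8767 in EDA-A2, where control replicate 1 was again high. Its log2 fold change was -0.35 ± 0.11 (edgeR quasi-likelihood test, Benjamini-Hochberg adjusted p = 0.0922). It was -0.11 when control replicate 1 was left out, -0.55 when control replicate 2 was, and -0.43 when EDA-A2 replicate 2 was. The ratio of Col6a1 to Col6a3 in FPKM was 1.90 in control replicate 1 and 2.86 to 3.00 in the other libraries. Col6a2 had a log2 fold change of -0.07. Col6a5 and Col6a6 were not tested, with at most 3 counts in any library.

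**Figure D3:**
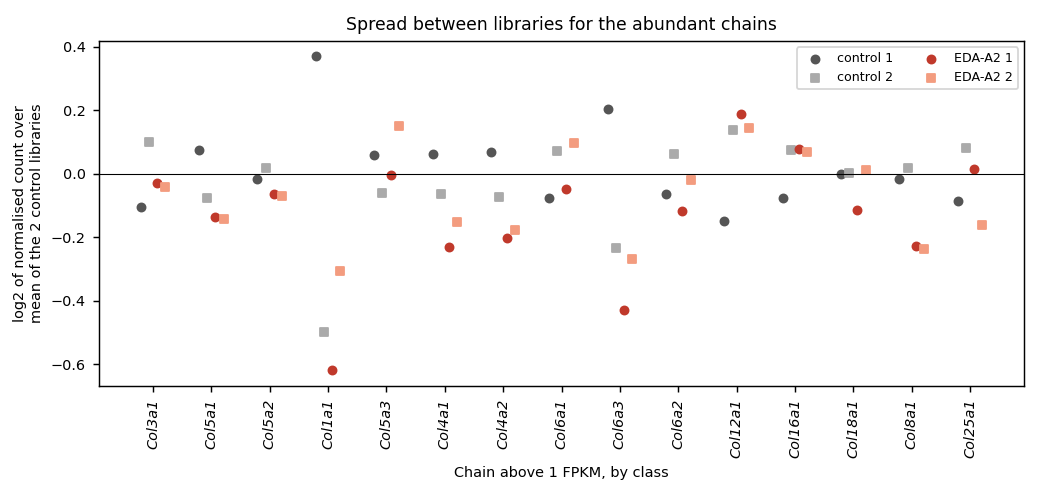
log2 of the normalised count over the mean of the control libraries for the 15 chains above 1 FPKM, with 1 point per library. Most chains lie within a narrow band around 0, while control replicate 1 stands above the other libraries for Col1a1 and Col6a3.

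The other classes held Col19a1 as their only called gene. Among FACIT chains, Col12a1, which binds fibril surfaces in tendon and muscle connective tissue, was the most abundant. It had 11486 and 14013 normalised counts in control and 14516 and 14087 in EDA-A2, a log2 fold change of 0.17 ± 0.08 (SE, n = 2 per group, adjusted p = 0.385 in edgeR). Control replicate 1 was lowest, and the other 3 libraries were close, so the log2 fold change was 0.03 without control replicate 1 and 0.31 without control replicate 2. Col16a1 had a log2 fold change of 0.07 and Col20a1 of -0.25. Col9a3, a chain of type IX collagen of cartilage, had 14 and 11 raw counts in control and 6 and 4 in EDA-A2, with a log2 fold change of -1.35 ± 0.55 (adjusted p = 0.231 in edgeR). Col9a1, Col9a2, Col14a1 and Col22a1 were not tested: Col14a1 had 5 to 15 counts, Col22a1 had 6 to 12, Col9a1 had at most 2, and Col9a2 had 0 in every library.

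Col18a1, the multiplexin from which endostatin is cut, had 18567 and 18619 normalised counts in control and 17176 and 18742 in EDA-A2. The log2 fold change was -0.05 ± 0.07 (SE, n = 2 per group, adjusted p = 0.825 in edgeR), and the groups overlapped. Col15a1, its relative in muscle basement membrane, had a log2 fold change of 0.03. Col8a1, a short-chain network collagen, had the smallest adjusted p among the chains not called. It had 2933 and 3004 normalised counts in control and 2534 and 2521 in EDA-A2, so the groups lay apart with little spread in either. The chain's log2 fold change was -0.23 ± 0.07 (edgeR quasi-likelihood test, Benjamini-Hochberg adjusted p = 0.0691). With length and GC offsets it was called lower (-0.27, adjusted p = 0.041 in edgeR). Col8a2 had a log2 fold change of 0.10, and Col10a1, of hypertrophic cartilage, had 3 to 8 counts and was not tested.

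Col25a1, a transmembrane collagen needed for motor nerves to reach muscle, had 4537 and 5100 normalised counts in control and 4865 and 4306 in EDA-A2. This gave a log2 fold change of -0.07 ± 0.08 (SE, n = 2 per group, adjusted p = 0.759 in edgeR), and the groups overlapped. Col23a1 and Col17a1 had log2 fold changes of 0.24 and -0.24. Col13a1, a transmembrane collagen of the neuromuscular junction, was not tested and had 16 and 7 raw counts in control and 3 and 0 in EDA-A2. Col7a1, the chain of anchoring fibrils, had 110.2 and 115 normalised counts in control and 122 and 111 in EDA-A2 (log2 fold change 0.05 ± 0.18, adjusted p = 0.95 in edgeR). Col26a1 had 131 and 152 in control and 148 and 135 in EDA-A2 (log2 fold change -0.00 ± 0.17, adjusted p = 0.996 in edgeR), and Col28a1 had a log2 fold change of 0.01. None of the tested chains in these small classes passed, and Col17a1 was the only one whose groups did not overlap.

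Abundant and low chains differed in precision. In the 15 chains above 1 FPKM, the standard error was 0.07 to 0.18. Their log2 fold changes ran from -0.46 to 0.17 with a median of -0.07, and 0 were called by edgeR (4.57% of all genes tested were). Of these 15, 11 were below 0 and 4 above, and the EDA-A2 libraries lay below both controls in 6 and above them in 1, where 22.2% and 22.8% of all genes tested did so. In the 18 tested chains at or below 1 FPKM, the standard error was 0.14 to 0.55 and the log2 fold changes ran from -1.35 to 1.74. Both called chains belonged to this low group.

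Genes that hydroxylate, fold, export, cut and crosslink collagen were described from a list of 35, of which 32 were tested. Of these, 2 rose and 1 fell (9.38% called, against 4.57% of all genes tested), and the median log2 fold change was -0.01. Adamts14, a protease that removes the amino-terminal propeptide of fibrillar procollagen, had 1164 and 856 normalised counts in control and 1957 and 1737 in EDA-A2. For this gene the log2 fold change was 0.87 ± 0.11 (SE, n = 2 per group) (edgeR quasi-likelihood test, Benjamini-Hochberg adjusted p = 0.000306). Both EDA-A2 libraries were far above the controls, although the call was lost without control replicate 1 (adjusted p = 0.147 in edgeR) and without control replicate 2 (adjusted p = 0.141).

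Lox, lysyl oxidase, which starts crosslinking of collagen and elastin, had 10751 and 10502 normalised counts in control and 13395 and 12416 in EDA-A2. The difference was 0.28 ± 0.07 on the log2 scale (SE, n = 2 per group, adjusted p = 0.0295 in edgeR), and the groups lay apart. Tgm2, a transglutaminase that also crosslinks matrix proteins, had 1495 and 1648 in control and 1180 and 1301 in EDA-A2, and fell by 0.34 on the log2 scale (SE 0.08, adjusted p = 0.0287 in edgeR). The call of Lox was lost without any 1 of the 4 libraries (adjusted p = 0.0612 to 0.444 in edgeR) and with length and GC offsets (0.0954), and that of Tgm2 was lost without control replicate 1 (0.217), control replicate 2 (0.262) or EDA-A2 replicate 1 (0.398) and with total counts (0.0833). P3h2, a prolyl 3-hydroxylase of basement membrane collagen, missed the threshold at -0.32 (adjusted p = 0.0505 in edgeR), and so did Loxl4 at 0.51 (adjusted p = 0.0673). The collagen chaperone Serpinh1 (-0.13), the prolyl 4-hydroxylase subunit P4ha1 (-0.02) and the lysyl hydroxylase Plod2 (0.01) were abundant and were not called.

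Of 11 collagen receptors, 9 were tested, and 0 were called by edgeR, whereas 6 had an unadjusted p under 0.05 and DESeq2 called 1. Over all genes tested, edgeR called 4.57%, and 15.6% had an unadjusted p under 0.05. DESeq2 called 565 of 13702 genes. The median log2 fold change of the 9 receptors was -0.18. Those with the smallest p were Ddr2, a kinase receptor for fibrillar collagen (log2 fold change 0.28, adjusted p = 0.0511 in edgeR), and Adgrg6, an adhesion receptor that binds type IV collagen (-0.35, adjusted p = 0.0517 in edgeR). Itga2, a collagen-binding integrin subunit, had 27.8 and 20.2 normalised counts in control and 59.8 and 38.3 in EDA-A2, with a log2 fold change of 1.03 (adjusted p = 0.106 in edgeR). Of 14 proteins that accompany fibrils or basement membranes, 11 were tested and 0 were called by edgeR or DESeq2, and 1 (Dcn) had an unadjusted p under 0.05. Their median was -0.12. The basement membrane genes Hspg2 (-0.01), Agrn (-0.06) and Nid2 (-0.14) were well expressed, whereas Nid1 had 2 to 17 counts and Lum had 0 in every library. As for Col1a2, whether annotation or counting lowered the counts of Nid1 and Lum was not tested.

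**Figure D4:**
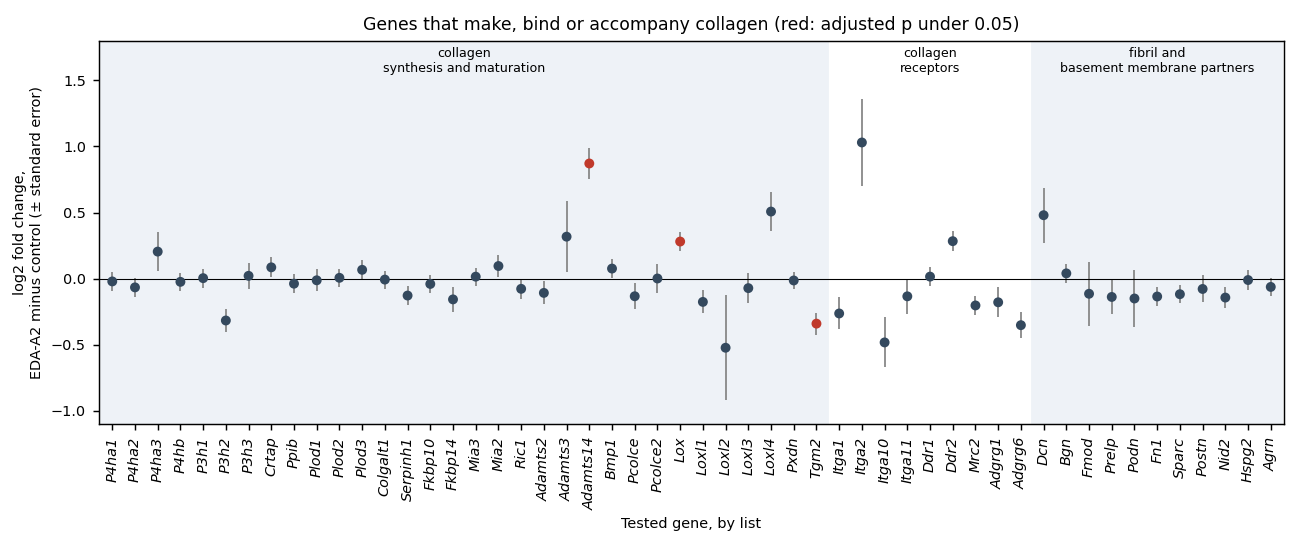
log2 fold change (EDA-A2 minus control) of the tested genes of 3 lists, those that make collagen, its receptors and its partners, with bars of 1 standard error and an adjusted p under 0.05 in red. Adamts14 (0.87) and Lox (0.28) are red above 0 and Tgm2 (-0.34) is red below 0, all among the genes that make collagen.

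Cell type markers were measured beside the collagens. Myotube markers summed to 21788 and 21100 CPM in control and 15538 and 15620 CPM in EDA-A2, and 4 of 8 fell (2.13% of all genes tested did), including Actn2 of the Z-disc (-0.65) and embryonic myosin Myh3 (-0.57). The fibroblast list summed to 329.7 and 381 CPM in control and 346 and 357 CPM in EDA-A2, so the groups overlapped. Most of that sum was Gsn, with 268 and 303 CPM in control and 263 and 274 CPM in EDA-A2. Of the 4 genes of the list that were tested, 3 had log2 fold changes above 0, and Gsn (-0.09) was below. In each library 5 of the list's 10 genes had more than 3 counts. Cd34 rose (0.42), whereas Thy1 was at 0 and Tcf21 had at most 1 count. Whether annotation or counting lowered the counts of Thy1 was not tested. Tenocyte markers summed to 29.9 and 32.6 CPM in control and 27.3 and 25.8 CPM in EDA-A2, with Scx lower (-0.61) and Tnmd and Kera at 0. Chondrocyte markers summed to 42.4 and 40.1 CPM in control and 47.8 and 44.3 CPM in EDA-A2, without overlap (45% of single genes tested had none). Nearly all of this was Sox9, with 42.1 and 40.0 CPM in control and 47.6 and 44.25 CPM in EDA-A2. Sox9 was not called (log2 fold change 0.16, adjusted p = 0.353 in edgeR). Matn1 and Matn3 had at most 6 counts, and Acan and Cnmd were at 0.

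Smooth muscle and pericyte markers summed to 53.8 and 54.3 CPM in control and 44.4 and 48.2 CPM in EDA-A2. Of 4 tested, Pdgfrb fell (-0.45), Cspg4 had -0.86, and Rgs5 (0.42) and Abcc9 (0.10) had values above 0 that were not called. Myoblast markers summed to 1390 and 1318 CPM in control and 1320 and 1309 CPM in EDA-A2. Most of this was Des, with 1050 and 1013 CPM in control and 1018 and 1014 CPM in EDA-A2. Among the myoblast markers Vcam1 rose (0.53) and Cdh15 fell (-0.47). Endothelial markers summed to 5.15 and 5.62 CPM in control and 6.62 and 6.14 CPM in EDA-A2, most of it Vwf. Macrophage markers summed to 9.81 and 8.65 CPM against 13.5 and 10.1 CPM, most of it Mrc1. Both sums were higher in EDA-A2 without overlap (45% of single genes tested had none), and none of their genes was called. Schwann markers summed to 5.32 and 5.52 CPM against 6.52 and 5.34 CPM. Emcn and Sox10 were at 0. The part of these markers in the collagen values was not tested.

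**Figure D5:**
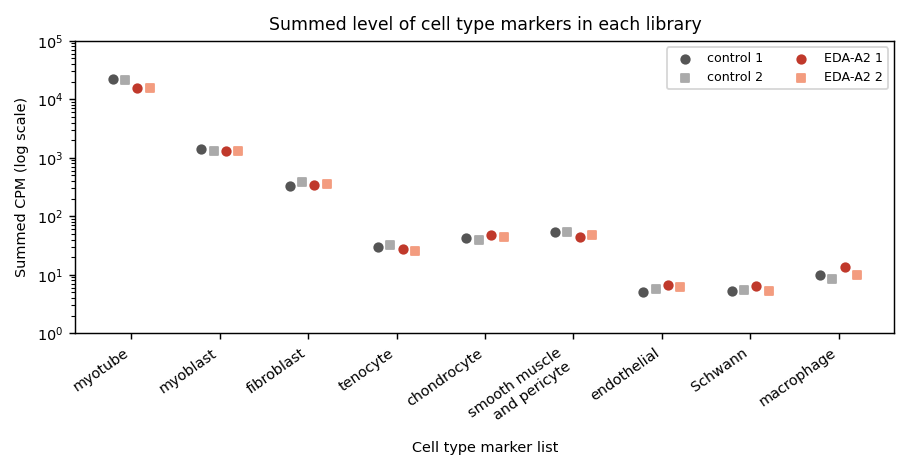
Summed CPM of 9 cell type marker lists on a log axis, with 1 point per library. The myotube sum is higher in control (21100 to 21788) than in EDA-A2 (15538 to 15620), and the endothelial, Schwann and macrophage sums stay at or below 13.5.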

How the data were processed

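The authors sequenced polyadenylated RNA from stranded libraries in pairs and deposited each library as its own table of raw counts, neither normalized nor pooled. Per the submitters' processing notes, they used FastQC 0.11.9, MultiQC 1.12, Trim Galore 0.6.5, STAR 2.7.3a and HTSeq 0.11.1 on GRCm39. The strand option and annotation release were not given in the sources used here. HTSeq summary lines were left out (6.68 to 7.40% outside genes, 0.946 to 0.986% ambiguous, 4.56 to 4.76% not unique).

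GENCODE matched 52610 of 53647 genes. In R 4.3.3, counts were tested with edgeR 4.0.16 (TMM, filterByExpr set to a count of 10 and a total of 15, quasi-likelihood test) with condition as the only term, and p-values were adjusted by Benjamini-Hochberg over 15173 genes (threshold 0.05). Standard errors are the log2 fold change over the square root of F. Normalised counts are scaled to the mean effective library size, and FPKM use exon union lengths. Each chain with an adjusted p under 0.05 and the most abundant chain of each class were given in full. In further lists up to 5 genes with the smallest p were named, and other genes were named after their values were seen. The members and lists were chosen with earlier results of these data known. Alternatives used DESeq2 1.42.0 and others listed below. The steps were tested on simulated data. The promoter window searched was 300 bases. It was shortened to 250 bases once the first result was known and then restored, and both counts are given.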

Additional observations from a re-analysis of the deposited data

How the results depend on the processing

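In all, 13 alternatives were run. Of 267 summary values, 201 stayed within the stated tolerance (1.5 times a count, or the spread between replicates) and 66 moved. Of 462 values of single genes, 402 kept their direction and side of the threshold, 22 lost a call, 10 gained one and 28 changed sign. The cause of these shifts was not tested, except that a filter or a left-out library changes the number of genes or samples in the fit.

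With DESeq2 size factors, 2 synthesis genes and 1 receptor were called lower (333 of 15173 genes over all). Total counts, without scaling factors, moved the median of all genes to 0.05. There 485 genes were called higher and 194 lower over all genes, with 1 receptor higher and 0 synthesis genes lower. The medians were 0.0044 for all chains, -0.049 for fibrillar chains, 0.041 for synthesis genes, -0.13 for receptors and -0.061 for partners. The log2 ratio of the summed collagen level was -0.028. Relative to the median of all genes, the chains lay as far below as with TMM. Without a filter, 64 genes were called higher and 22 lower over 25545 genes (2264 at an unadjusted p under 0.05), 0 collagen chains and 0 synthesis genes were called in either direction by edgeR, and the fibrillar median was -0.073. With at least 10 counts in every library, which Col6a4 did not reach, 1 chain and 1 receptor were called higher (357 of 14330 genes over all). By DESeq2's Wald test 1 chain (Col19a1) and 1 receptor were called higher (294 of 13702 genes over all), and Col6a4 got no adjusted p. With length and GC offsets, 1 synthesis gene was called higher, and 1 chain (Col8a1) and 1 receptor lower. Of 15103 genes over all, 309 were called higher and 297 lower there.

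The replicate numbers were shared between groups. Deviations of the libraries with the same number had a correlation of 0.08 over 15173 genes. With 2 pairs this does not settle whether the libraries were paired, and the main fit had no term for replicate. With the replicate block, 529 genes were called lower over all genes (1066 in both directions), and 1 receptor was higher, whereas 2 chains (Col8a1 and Col6a3), 2 synthesis genes and 1 receptor were lower. With the replicate block and length and GC offsets, 575 genes were higher and 737 lower over all genes, 4 chains (Col19a1, Col6a4 and the 2 fibrillar chains Col24a1, adjusted p = 0.0222, and Col27a1, adjusted p = 0.0262) and 2 receptors were higher in edgeR, and 3 chains (Col8a1, Col6a3 and the 1 fibrillar chain Col1a1, -0.37, adjusted p = 5.03e-05), 2 synthesis genes and 1 receptor were lower. No type IV chain was called under any of the 13 alternatives.

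With each library left out in turn, a lone library was assumed to vary like the other group. Calls over all genes then ranged from 7 to 223 higher and from 0 to 193 lower, those of chains from 0 to 1 higher and from 0 to 2 lower, those of fibrillar chains from 0 to 1 lower, and those of synthesis genes from 0 to 1 in either direction. Medians ranged from -0.11 to 0.0012 for all chains, -0.10 to -0.032 for fibrillar chains, -0.26 to -0.12 for type IV chains, -0.28 to -0.13 for receptors and -0.13 to -0.041 for partners. Single chains that changed sign had log2 fold changes of -0.020 to 0.11 (Col7a1), -0.0025 to 0.15 (Col16a1), -0.47 to 0.0012 (Col20a1), -0.14 to 0.068 (Col3a1), -0.83 to 0.039 (Col1a1), -0.0042 to 0.15 (Col5a3), -0.60 to 0.21 (Col1a2), -0.11 to 0.011 (Col18a1), -0.023 to 0.077 (Col15a1), -0.11 to 0.11 (Col26a1), -0.25 to 0.33 (Col28a1), -0.23 to 0.54 (Col8a2), -0.16 to 0.014 (Col25a1), -0.041 to 0.59 (Col23a1) and -0.050 to 0.099 (Col6a1). Under other settings the sign changed for Col3a1 (0.019) and Col18a1 (0.0044) with total counts, for Col26a1 with upper quartile factors (0.0023), total counts (0.052), length and GC offsets (0.013) and these offsets with the replicate block (0.014), and for Col28a1 with these offsets (-0.012) and with the replicate block added (-0.00059).

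Depth limits the low chains: a count of 0 allows 0.101 to 0.102 CPM, and 11 of 44 chains had too few counts to be tested, with at most 18 in any library. With 2 libraries per group, 0 of the 15 chains above 1 FPKM were called in the main edgeR fit, so small changes of these chains remain uncertain. In 6 of them both EDA-A2 libraries lay below both controls and in 1 above (22.2% and 22.8% of all genes tested). Col8a1, the closest to the threshold, was called under 3 of the 13 alternatives.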
